A study of Mus musculus with 12 samples.

Results

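Livers of 4 telomerase knock-out (KO) mice were set against livers of 4 wild-type (WT) mice, pooling loss of the protein part of telomerase with loss of its RNA part. The members are the 8 arrays, of 12 in the series, whose sample titles end in 2 or 3; the 4 arrays numbered 1 were left out by that choice and serve only as a check. The KO group held 2 mTERT KO and 2 mTR KO livers, all first-generation (G1) nulls, and the WT group held 2 mTERT WT and 2 mTR WT livers. All animals were male C57BL/6J mice matched for age, whose age is not given in the sources used here. The series text states that the KO and WT mice of a set were littermates, and the number in a title was read as the set, so that a KO and a WT array of one line and one number form a pair. Which part of Tert or Terc was deleted, and whether the KO animals of a line share 1 founder, are not given in the sources used here.

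Telomerase adds repeats to the ends of chromosomes: the Tert gene encodes the reverse transcriptase, mTERT, and the Terc gene gives mTR, the RNA that holds the template. Laboratory mice have long telomeres, and mice of the first generation without telomerase are known to keep most of them, with defects of dividing tissues appearing in later generations. Hepatocytes, the main cells of the liver, rarely divide in healthy adults. The pooled comparison asks what the absence of telomerase, by either route, does to liver transcripts at this early stage.

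Each array gave a log2 intensity, called a level here, for 28853 probe sets (probes), each summarising 1 transcript region. The median of an array was 4.37 to 4.42, and any 2 of the 8 arrays correlated at 0.985 to 0.996. A level of 4.27 served as background, the mean over arrays of the 95th percentile of 1023 olfactory receptor probes, whose genes liver does not use. Hepatocyte markers bore out the tissue: 15 of 15 were above background on every array, with means of 12.46 to 12.53 in KO and 12.37 to 12.51 in WT livers. Transcripts of neighbouring tissues stood out in 3 WT arrays. Averaged over 23 genes of the enzyme-secreting acinar cells of the pancreas, the level was 3.80 to 3.97 in the KO arrays, against 7.72 in mTERT WT 2, 6.12 in mTR WT 2, 3.86 in mTERT WT 3 and 3.83 in mTR WT 3. The mean of 24 skeletal muscle genes was 4.04 to 4.26 in the KO arrays, against 6.30 in mTERT WT 3 and at most 4.09 in its 3 fellow WT arrays.

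The targeted genes were read first. Tert had levels of 4.07 and 4.15 in mTERT KO 2 and 3, against 4.78 and 4.83 in mTERT WT 2 and 3. In the other line Tert read 4.90 and 5.02 in mTR KO 2 and 3, against 4.84 and 5.04 in mTR WT 2 and 3. The Tert transcript was thus below background in both mTERT KO arrays and above it in the other 6. Pooled over lines, the Tert difference, KO minus WT, was −0.34 on the log2 scale (SE 0.132, limma, adjusted p 1). The Terc probe read 4.17, 4.23, 4.18 and 3.87 in mTERT KO 2, mTERT KO 3, mTR KO 2 and mTR KO 3, against 4.08, 4.10, 4.24 and 4.22 in the matching WT arrays. All 8 Terc levels were below background, so the probe is no check of the mTR deletion.

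Across all probes, 1 transcript passed the test, and it was lower in KO livers. The test was limma's moderated comparison with line and title number as blocks, two-sided, adjusted by Benjamini-Hochberg over the 28853 probes at a threshold of 0.05. The called probe, that of Dmbt1, is 0.00347% of those tested. At an unadjusted p under 0.05 there were 708 probes (2.45%), of which 373 were higher (1.29%) and 335 were lower (1.16%) in KO. The 4 KO and 4 WT values did not overlap at 405 probes (1.4%), 230 of them higher (0.797%) and 175 lower (0.607%) in KO. KO differed from WT in the same direction in 4 of 4 pairs at 2745 probes (9.51%), 1479 of them higher (5.13%) and 1266 lower (4.39%). Some probes meet each of these criteria even where nothing differs, so the counts alone are no sign of an effect. The 2.45% is below the share that an unadjusted p under 0.05 marks when nothing differs. The sizes were small: the 95% interval of the difference lay within a 2-fold change at 99.6% of probes, and the median SE was 0.0849. Of all probes, 52.6% had a difference above 0, and of 19938 genes at 1 probe each, as used for the gene lists below, 51.4%. The mean KO level was at least 2-fold lower at 34 probes (0.118%) and at least 2-fold higher at 2, those of Asns and Cyp4a14 (0.00693%), together 0.125%. Of the variance among the 8 arrays summed over all probes, genotype took up 13.2%, line 16.1%, title number 19.3% and the remainder 51.4%. In such a sum the most variable probes weigh most. Any split of the 8 arrays into 4 and 4 takes up some share, and no chance share was set beside these.

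**Figure D1:**
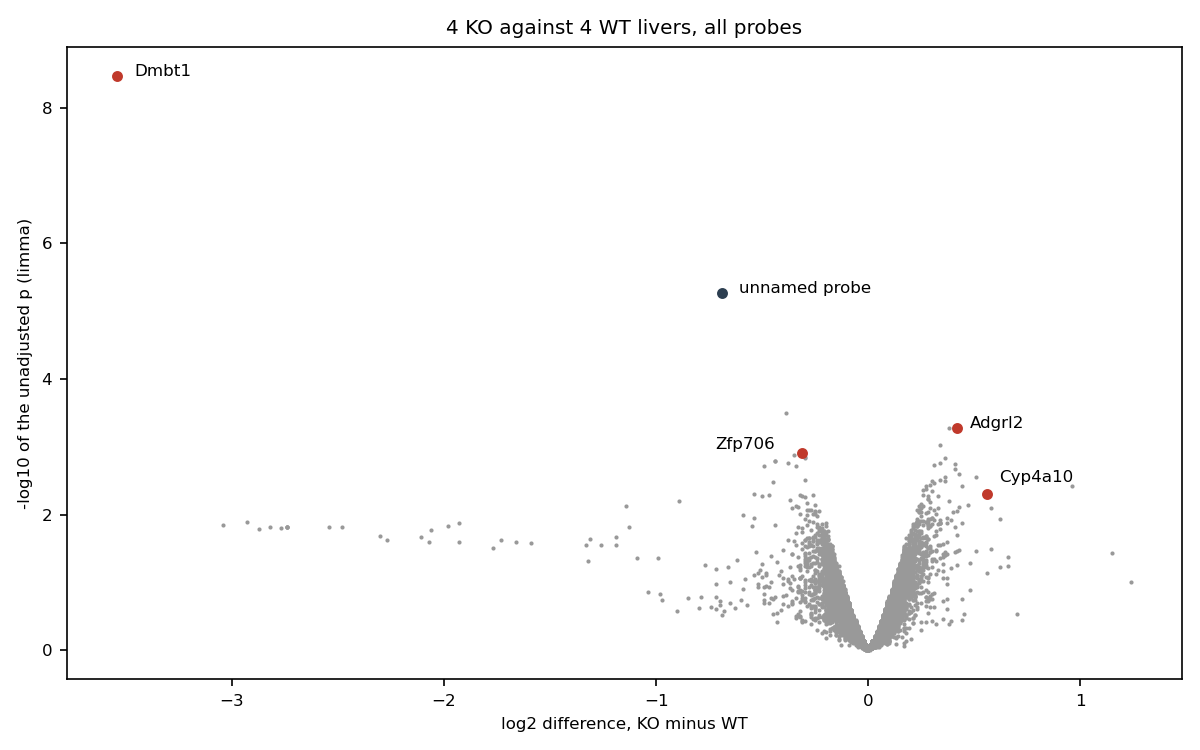
Each point is 1 of 28853 probes, with the fitted log2 difference, KO minus WT, across and −log10 of the unadjusted limma p upwards, for 4 KO and 4 WT livers. Dmbt1, at −3.54, stands apart at the upper left; the next point down is an unnamed probe at −0.69, and the trail of grey points between about −3 and −1 at low height includes pancreas genes, which 2 of the 4 WT livers carried.

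Dmbt1 fell in KO livers. This gene encodes a large secreted glycoprotein of the scavenger receptor family, made by epithelia that line ducts and mucosal surfaces and known in mice from gallbladder, bile duct, gut and pancreas. Its levels were 3.70 and 3.67 in mTERT KO 2 and 3 and 3.80 and 3.78 in mTR KO 2 and 3, against 7.12 and 8.06 in mTERT WT 2 and 3 and 6.82 and 7.10 in mTR WT 2 and 3. All 4 KO arrays were below background and all 4 WT arrays were far above it, with no overlap. The fitted difference was −3.54 on the log2 scale (SE 0.184, 95% interval −3.95 to −3.13, limma, adjusted p 9.69e-05). Since Dmbt1 had no measured level in KO, the change is given as a bound: at least 7.99-fold lower, from a WT mean level of 7.27 and the background of 4.27. In RNA of whole tissue, fewer cells of a type and less RNA per cell cannot be told apart.

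Pancreas transcripts were set beside Dmbt1 in the WT arrays numbered 2 and 3, and their part in its levels was not tested. The highest Dmbt1 level, 8.06, was in mTERT WT 3, where the pancreas mean was 3.86, and mTR WT 3 had a Dmbt1 level of 7.10 with a pancreas mean of 3.83. Without mTERT WT 2 and mTR WT 2, the 2 WT arrays that carried pancreas transcripts, the Dmbt1 difference was −3.86 (limma, adjusted p 0.00712). Over 20 alternative settings of the 8 arrays, the adjusted p of Dmbt1 ranged from 9.28e-07 to 0.00712 and the difference from −3.86 to −3.28.

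The arrays numbered 1 went the opposite way for Dmbt1. Its level was 7.40 in mTERT KO 1 and 9.34 in mTR KO 1, against 5.08 in mTERT WT 1 and 5.28 in mTR WT 1. In those 2 pairs KO was higher by 2.32 and 4.06 on the log2 scale, and all 4 arrays were above background. The pancreas mean was 8.36 and 9.78 in these KO arrays, against 6.43 and 3.86 in these WT arrays; the part of pancreas tissue in the Dmbt1 levels of these arrays was not tested. In a fit of all 12 arrays, the KO effect in numbers 2 and 3 minus that in number 1 was −6.73 for Dmbt1 as fitted (SE 0.579, limma, adjusted p 0.00273), which is not a measured size, since the 4 KO levels in numbers 2 and 3 were below background. It was the single probe called for that difference (0.00347% of 28853), with 868 at an unadjusted p under 0.05 (3.01%). Pooled over all 12 arrays the Dmbt1 difference was −1.30, with a limma adjusted p of 1. The fall of Dmbt1 was seen in numbers 2 and 3 of both lines and not in number 1 of either.

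**Figure D2:**
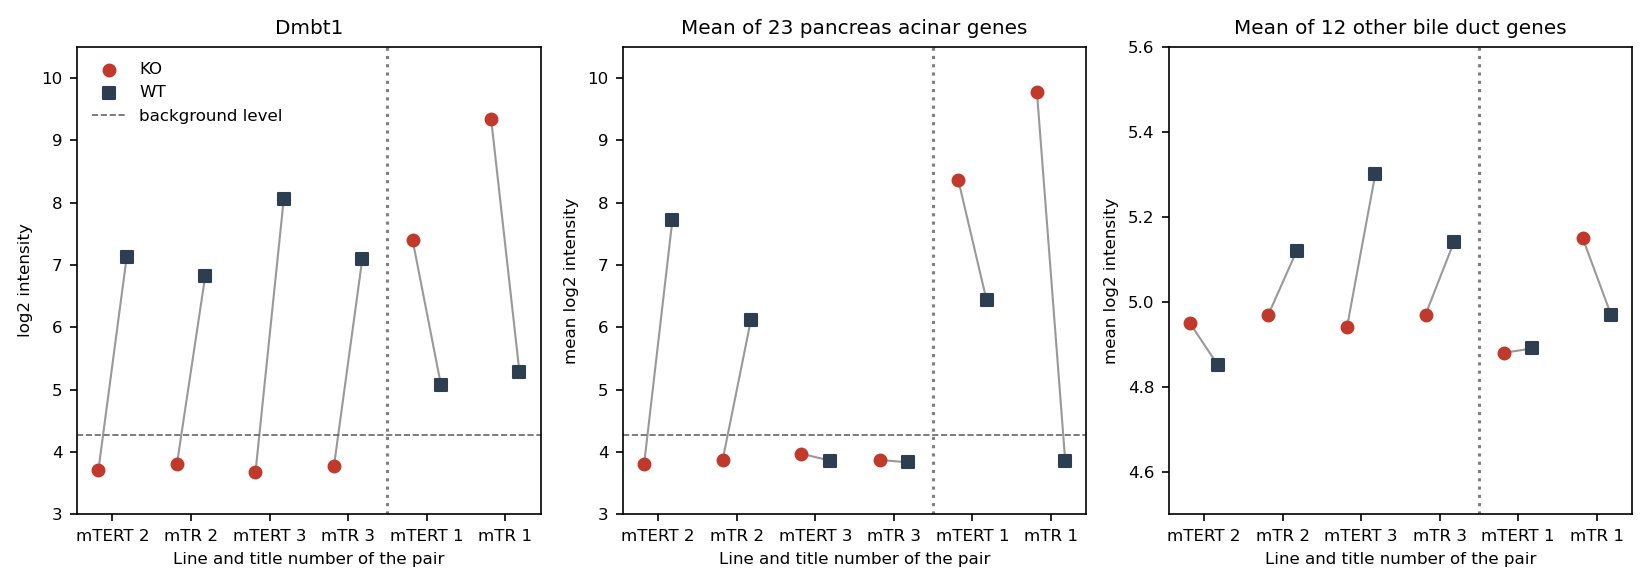
Levels in each pair, KO as red circles and WT as dark squares joined by a line, with pairs numbered 2 and 3 left of the dotted line and pairs numbered 1, not in the fit, to its right: Dmbt1 (left), the mean of 23 pancreas acinar genes (middle) and the mean of 12 bile duct genes other than Dmbt1 (right, on a narrower axis). KO Dmbt1 levels lie at 3.67 to 3.80 and WT levels at 6.82 to 8.06 in the first 4 pairs, the order turns over in the last 2, and the pancreas mean is high in mTERT WT 2 and mTR WT 2 but not in the WT arrays numbered 3.

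Genes of bile duct epithelium were described as a group because Dmbt1 belongs to them. Of 12 other members on the array, 11 had differences below 0, and 9 of the 12 had a mean above background in KO or WT. By limma 0 passed and 2 had an unadjusted p under 0.05, against 1.16% of all probes on the lower side. The median difference was −0.14, against 0.002 over 19938 genes. It was −0.078 without mTERT WT 3, which carried muscle transcripts, −0.09 without mTR WT 2 and −0.243 without mTERT WT 2 and mTR WT 2. Krt19, a keratin of duct cells, had levels of 4.46, 4.42, 4.33 and 4.64 in mTERT KO 2, mTERT KO 3, mTR KO 2 and mTR KO 3, against 4.26, 5.69, 4.73 and 5.36 in the matching WT arrays. Its difference was −0.55 (SE 0.186, limma, adjusted p 1), and KO was lower in 3 of 4 pairs, mTERT 2 being the exception. The Krt19 difference was −0.34 without mTERT WT 3 and −1.0 without the 2 WT arrays that carried pancreas transcripts. Muc1, a membrane mucin, was below background in all 4 KO arrays and also in mTERT WT 2, at 3.94. It read 4.89 in mTERT WT 3, 4.34 in mTR WT 2 and 4.58 in mTR WT 3. For the group means only, a WT mean of 4.44 makes it at least 1.12-fold lower in KO by the same bound. The fitted Muc1 difference was −0.28 (SE 0.125), and dropping any 1 array moved it within −0.42 to −0.14. In the mTERT pairs numbered 2 and 1, both Muc1 levels were below background, so these pairs give no order. In the mTR pair numbered 1, KO was higher by 0.76. The duct transcription factor gene Sox9 differed by −0.13 (SE 0.128) and the epithelial adhesion gene Epcam by −0.15 (SE 0.102); both were picked after their values were seen, and without mTERT WT 3 they were 0.03 and −0.06. The mean level of the 12 genes was 4.95, 4.94, 4.97 and 4.97 in the KO arrays and 4.85, 5.30, 5.12 and 5.14 in the matching WT arrays, so the groups overlapped through mTERT WT 2.

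The probe with the next smallest p has no gene name in the annotation used. Its levels were 7.76, 7.70, 7.46 and 7.61 in the KO arrays, against 8.32, 8.32, 8.35 and 8.31 in the matching WT arrays. The WT arrays were nearly level and all 4 KO arrays were lower, by −0.69 on the log2 scale (SE 0.0789). The limma adjusted p was 0.0766, and over alternative settings it passed in 4: 0.039 after quantile normalization, 0.00669 with a trended and robust prior, 0.032 without the title number as a block and 0.0488 with array weights. Among the arrays numbered 1, KO minus WT was −0.26 in the mTERT pair and 0.56 in the mTR pair. This probe was picked after its values were seen.

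No gene passed as higher in KO, by limma, with 373 probes at an unadjusted p under 0.05. The 12 named genes with the smallest p among those higher in 4 of 4 pairs differed by 0.26 to 0.56 on the log2 scale, with unadjusted p of 0.000529 to 0.00523 and an adjusted p of 1 each; their common direction is fixed by that choice. Eif2ak3, the kinase PERK that senses misfolded proteins in the endoplasmic reticulum, had levels of 7.05, 6.68, 7.00 and 7.02 in mTERT KO 2, mTERT KO 3, mTR KO 2 and mTR KO 3, against 6.68, 6.44, 6.75 and 6.64 in the matching WT arrays (difference 0.31, SE 0.0812). Tbl2, a membrane protein that binds PERK, had 6.20, 6.15, 6.21 and 6.25 in KO, against 5.92, 5.95, 5.74 and 6.00 in WT (0.30, SE 0.0782). The Tbl2 groups did not overlap, but those of Eif2ak3 did, with mTERT KO 3 at 6.68 below mTR WT 2 at 6.75. The co-chaperone gene Dnajb9 differed by 0.33 (SE 0.094) and Alg2, a mannosyltransferase of N-glycan assembly, by 0.30 (SE 0.0831).

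Cd163, the scavenger receptor by which macrophages take up haemoglobin, had levels of 6.73, 6.49, 6.69 and 6.76 in KO, against 6.47, 6.16, 6.22 and 6.38 in WT (0.36, SE 0.094). Its groups did not overlap, while the list of 20 Kupffer cell and macrophage genes it belongs to had a median difference of −0.01, with 9 above and 11 below 0. Hlcs, which attaches biotin to carboxylases, differed by 0.34 (SE 0.0872), and Cda, a deaminase of pyrimidine salvage, by 0.31 (SE 0.0736). The adhesion receptor gene Adgrl2 differed by 0.42 (SE 0.0829), but its 7 other probes gave −0.03 to 0.28. Adamts9, a secreted protease gene, was not above background in any of the 4 WT arrays (mean 4.37 in KO and 3.99 in WT, at least 1.07-fold higher in KO), and its 5 other probes gave 0.02 to 0.18. The acetylcholine receptor subunit gene Chrna4 (0.43, SE 0.108, or 0.27 without mTERT WT 2 and mTR WT 2) and the U6 spliceosomal RNA gene Rnu6 (0.26, SE 0.0736), which has many near-identical copies, complete the group with Cyp4a10, described with its family. Chrna4 was below background in mTERT WT 2 (3.78) and mTERT WT 3 (4.03), and mTERT KO 3, at 4.28, lay about at the background of 4.27. Its 0.43 is thus a fitted and not a measured size.

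On the lower side Dmbt1 headed the 12 genes chosen in the same way, and the 11 others differed by −0.45 to −0.26. Zfp706, a small zinc-finger gene, had levels of 7.25, 7.30, 7.33 and 7.37 in mTERT KO 2, mTERT KO 3, mTR KO 2 and mTR KO 3, against 7.66, 7.62, 7.61 and 7.60 in the matching WT arrays (difference −0.31, SE 0.0697, adjusted p 1). Each WT array lay above each KO array for Zfp706, yet a second probe of the gene gave 0.08. Rybp, a Polycomb protein gene, differed by −0.45 (SE 0.116), with −0.14 at its second probe. The membrane glycoprotein gene Gpm6a differed by −0.34 (SE 0.0824), Ift27, of the transport machinery of cilia, by −0.33 (SE 0.0977), and Rab11fip2, of recycling endosomes, by −0.32 (SE 0.0882, or −0.50 without mTERT WT 2 and mTR WT 2). Igfbp6, which binds insulin-like growth factor II, differed by −0.35 (SE 0.0803) and the fructose transporter gene Slc2a5 by −0.30 (SE 0.0693). Slc2a5 read 4.29, 4.04, 4.27 and 4.11 in the KO arrays, about at or below background, so its difference is a fitted and not a measured size. The focal adhesion gene Tns2 differed by −0.30 (SE 0.0769) and the membrane protein gene Plp2 by −0.31 (SE 0.0869, with −0.18 and −0.16 at its 2 other probes). Mesothelin (Msln) and the imprinted non-coding RNA gene Meg3 were below background in all 4 KO arrays and averaged 4.34 and 4.39 in WT, which makes them at least 1.04-fold and at least 1.08-fold lower in KO.

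In the pairs numbered 1, which the choice of genes did not use, these directions were not repeated. Of the 12 higher genes, 0 were higher in both of those pairs and 4 were lower in both. Of the 12 lower genes, 3 were lower in both (Zfp706, Gpm6a and Plp2, at −0.09 to −0.04) and 4 were higher in both. Over all 708 probes with an unadjusted p under 0.05, 46.2% had the sign of the mean difference in number 1, against 49.9% of all probes, and 19.6% had it in both pairs, against 23.0% of all probes.

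**Figure D3:**
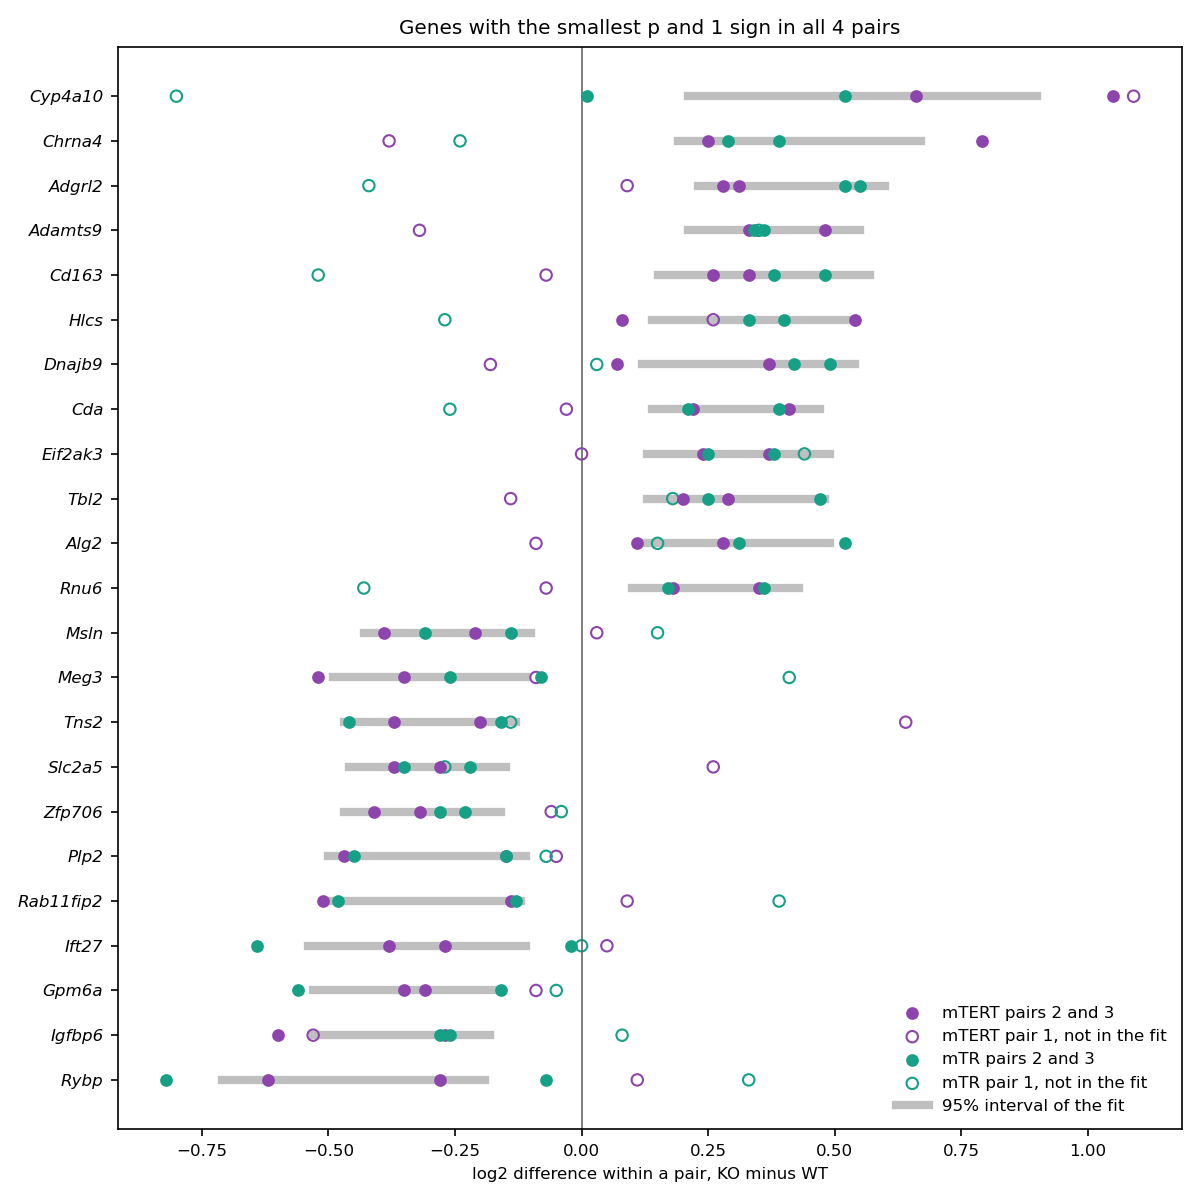
Log2 difference, KO minus WT, within each pair for the 23 genes other than Dmbt1 with the smallest p and 1 sign in 4 of 4 pairs. Filled points are the pairs numbered 2 and 3 (mTERT purple, mTR green), grey bars the 95% interval of the fit, and open points the pairs numbered 1, which scatter on both sides of 0.

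Telomere and DNA damage genes had list medians near 0. Of 10 telomerase subunit and assembly genes, 5 were above and 5 below 0, with a median of 0.015. The assembly gene Ruvbl2 differed by 0.15 (SE 0.102) and Gar1, of the ribonucleoprotein core, by 0.12 (SE 0.0697). Of 12 genes that cap chromosome ends, 3 were above and 9 below 0 with a median of −0.059; Terf2, the shelterin protein that hides chromosome ends from repair, differed by −0.13 (SE 0.0827), Stn1 by −0.13 (SE 0.0698) and Pot1b, which binds the single-stranded end, by −0.11 (SE 0.0842). Among 24 p53 targets 14 were above and 10 below 0 (median 0.014), with the death receptor gene Fas at −0.20 (SE 0.0936) and the cyclin gene Ccng1 at −0.12 (SE 0.0767). Among 31 genes of DNA break signalling and repair 16 were above and 15 below 0 (median 0.012), with the break sensor Parp1 at 0.15 (SE 0.0835) and the histone H2ax at 0.19 (SE 0.115). None of these members passed; by limma only Tert had an unadjusted p under 0.05 in the 4 lists. The H2ax difference was 0.06 without mTERT WT 2, that of Fas was −0.11 without mTERT WT 3, and that of Parp1 was −0.00 without mTERT WT 2 and mTR WT 2. Senescence-associated genes were split evenly, 6 above and 6 below 0 (median −0.017), with Igfbp3 at 0.27 (SE 0.182). A mean above background in KO or WT was found for 7 of 12 senescence genes, 18 of 24 p53 targets and 25 of 31 repair genes. The signs of the remaining members carry no order. The Igfbp3 difference was 0.01 without mTERT WT 2 and 0.16 without mTERT KO 2, and the mTERT 2 pair alone gave 1.03.

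Proliferation genes were above 0 in 24 of 30, with a median of 0.057, and none passed. Only 20 of the 30 had a mean above background in KO or WT. Tk1, the thymidine kinase of S phase, had levels of 6.14, 5.91, 6.20 and 6.24 in mTERT KO 2, mTERT KO 3, mTR KO 2 and mTR KO 3, against 5.58, 5.87, 5.88 and 6.06 in the matching WT arrays. The Tk1 difference was 0.28 (SE 0.0911, limma, unadjusted p 0.0128, adjusted p 1), with KO higher in 4 of 4 pairs but the groups overlapping, and it was 0.11 without mTERT WT 2 and mTR WT 2. A second probe of Tk1 gave −0.09. The mitotic kinase gene Cdk1 differed by 0.12 (SE 0.072) and Mcm2, of the replicative helicase, by 0.14 (SE 0.0923). In the pairs numbered 1 the median of the list was −0.094 for mTERT and 0.006 for mTR.

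Of the gene lists, Cyp4a hydroxylases (0.558) and fatty acid synthesis genes (0.122) had the highest medians. Cyp4a genes encode omega-hydroxylases of fatty acids, and those inducible through the lipid sensor PPARA are Cyp4a10, Cyp4a14 and Cyp4a31. Cyp4a10 had levels of 9.14, 8.46, 8.56 and 8.31 in mTERT KO 2, mTERT KO 3, mTR KO 2 and mTR KO 3, against 8.09, 7.80, 8.04 and 8.30 in the matching WT arrays (difference 0.56, SE 0.155, limma, unadjusted p 0.005). Cyp4a14 had levels of 10.49, 10.17, 10.65 and 8.90 in KO, against 7.52, 8.89, 9.48 and 9.72 in WT (1.15, SE 0.476), and its difference was 0.23 without mTERT WT 2 and mTR WT 2 and 0.54 without mTERT WT 2 alone. Without the same 2 arrays the Cyp4a10 difference was 0.33 and the list median 0.232. Cyp4a31 had 8.98, 8.77, 8.63 and 8.48 in KO, against 7.79, 7.84, 8.32 and 8.59 in WT (0.58, SE 0.176). KO was clearly higher in both mTERT pairs for all 3, while in the mTR 3 pair Cyp4a14 and Cyp4a31 were lower in KO and Cyp4a10 was level. In the pairs numbered 1, KO was higher in mTERT (Cyp4a10 1.09, Cyp4a14 2.1, Cyp4a31 1.21) and lower in mTR (−0.8, −0.43, −0.25). The other 2 measured members, the male-biased Cyp4a12a (−0.12, SE 0.117) and Cyp4a12b, named to complete the family, were below 0. None passed at an adjusted p under 0.05, and 3 of 5 had an unadjusted p under 0.05, against 1.29% of all probes on the higher side. These genes are close paralogs, and whether their probes cross-hybridise was not tested.

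Other PPARA targets were above 0 in 28 of 36, with a median of 0.041, and 0 passed by limma. Of them 2 had an unadjusted p under 0.05 on the higher side, against 1.29% of all probes. The thioesterase gene Acot1 differed by 0.34 (SE 0.118) and the peroxisomal thiolase gene Acaa1b by 0.25 (SE 0.104). Without mTERT WT 2 and mTR WT 2 the median of these targets was −0.033, the Acot1 difference 0.12 and the Acaa1b difference 0.08. Genes of fatty acid synthesis were above 0 in 23 of 24, with a median of 0.122, against 0.002 over all genes. Acacb, an acetyl-CoA carboxylase, had levels of 8.21, 8.03, 8.35 and 8.54 in mTERT KO 2, mTERT KO 3, mTR KO 2 and mTR KO 3, against 6.97, 8.04, 7.87 and 8.53 in the matching WT arrays (difference 0.43, SE 0.174). Fasn, the fatty acid synthase, differed by 0.35 (SE 0.144) and Thrsp, a lipogenic regulator, by 0.31 (SE 0.0933). For Acacb the 2 pairs numbered 2 carried the difference and the 2 pairs numbered 3 were level. The whole list divided in the same way: its median was 0.346 in mTERT 2 and 0.242 in mTR 2, but −0.015 in mTERT 3 and −0.003 in mTR 3. Both WT arrays of number 2 are those with pancreas transcripts, and without them the median was −0.004, the Fasn difference −0.05 and the Thrsp difference 0.12; the part of pancreas tissue in the lipid values was not tested. Cholesterol synthesis genes had the same division, at 0.166 in mTERT 2 and 0.141 in mTR 2 against −0.077 in mTERT 3 and 0.019 in mTR 3, with 16 of 20 above 0 (median 0.055) and Mvd at 0.25 (SE 0.106). Without the same 2 WT arrays the cholesterol median was −0.034 and the Mvd difference 0.12.

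**Figure D4:**
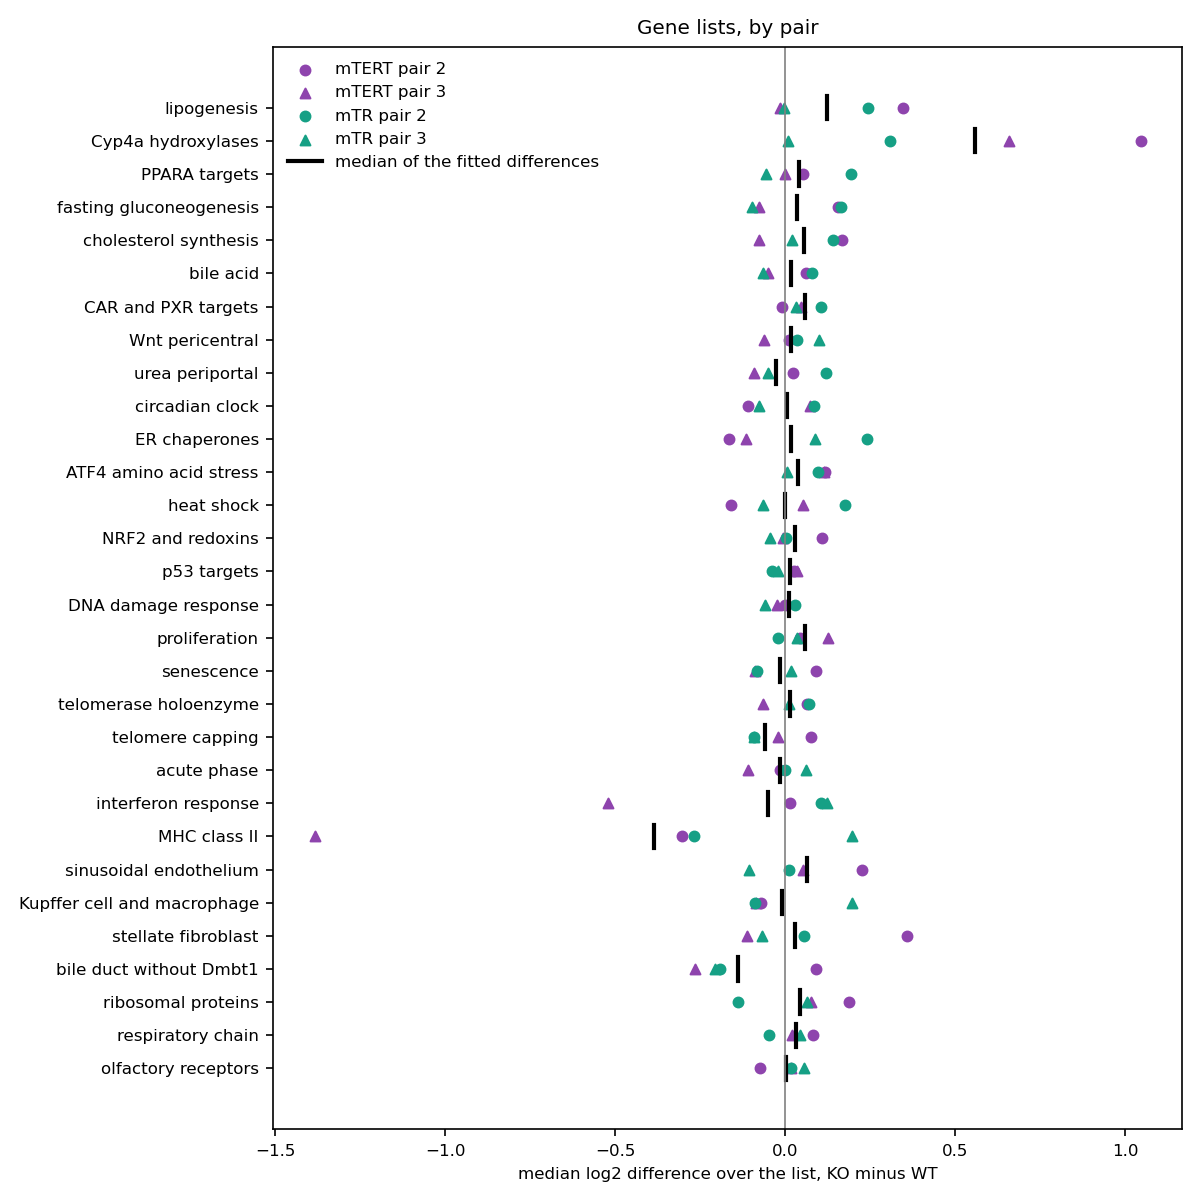
Median log2 difference, KO minus WT, over the members of each gene list, for each of the 4 pairs (purple mTERT, green mTR, circles for number 2 and triangles for number 3) and for the fit of all 8 arrays (black bars). Most bars lie within 0.1 of 0; Cyp4a hydroxylases lie at 0.558 and MHC class II genes at −0.387, each with pairs far apart, and pancreas (−1.663) and muscle (−0.488) lists are left off the axis.

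Cyp7a1, the rate-limiting enzyme of bile acid synthesis, had levels of 9.88, 10.04, 9.60 and 10.03 in mTERT KO 2, mTERT KO 3, mTR KO 2 and mTR KO 3, against 9.43, 9.93, 9.49 and 9.24 in the matching WT arrays (difference 0.37, SE 0.117, limma, unadjusted p 0.011). KO was higher in 4 of 4 pairs for Cyp7a1, although its 24-gene bile acid list had a median of 0.018 and the Cyp7a1 difference was 0.23 without mTR WT 3. Cyp2c38, a cytochrome P450 of the xenobiotic list, differed by 0.62 (SE 0.202), but by 0.10 without mTERT WT 2 and mTR WT 2 and by 0.41 without mTERT WT 2 alone or mTERT KO 2 alone. Of its list 16 of 24 members were above 0, with a median of 0.058. Irs2, an insulin signalling adaptor induced on fasting, differed by 0.27 (SE 0.0896), or 0.15 without those 2 WT arrays, and 12 of 19 fasting and gluconeogenesis genes were above 0 (median 0.034). Wnt-dependent pericentral genes (10 of 19 above 0, median 0.017) and periportal urea cycle genes (4 of 13 above 0, median −0.028) lay on both sides of 0. The clock gene Nr1d1 read 6.12, 7.80, 5.64 and 5.55 in KO, against 6.34, 8.28, 5.73 and 6.79 in WT: KO was lower in 4 of 4 pairs, while the KO and WT ranges overlapped (−0.50, SE 0.261, limma, adjusted p 1). The Nr1d1 difference was −0.15 without mTR KO 3, −0.77 without mTR KO 2 and −0.86 without mTERT WT 2 and mTR WT 2, and KO was higher in both pairs numbered 1, by 2.15 and 1.62. Of the clock genes 12 of 20 were above 0 (median 0.006). None of the members of these lists passed the test.

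Among stress genes, 23 chaperones and quality control genes of the endoplasmic reticulum had a median of 0.016, with 13 above and 10 below 0. Dnajb9 had the smallest p of them; the protein disulfide isomerase gene P4hb differed by 0.08 (SE 0.0714) and Creld2 by −0.16 (SE 0.202). Their pair medians separated by line, at −0.165 and −0.116 in the mTERT pairs and 0.24 and 0.087 in the mTR pairs. Genes induced by amino acid shortage through ATF4 were above 0 in 20 of 24 (median 0.038). Asns, the asparagine synthetase gene, had levels of 6.53, 4.82, 5.28 and 8.66 in mTERT KO 2, mTERT KO 3, mTR KO 2 and mTR KO 3, against 5.82, 4.65, 5.02 and 4.86 in the matching WT arrays. Asns was higher in KO in 4 of 4 pairs, but the fitted 1.24 (SE 0.681, limma, adjusted p 1) was 0.21 without mTR KO 3. Cytosolic and mitochondrial heat shock genes (9 of 19 above 0, median −0.002) and NRF2 targets with redoxins (20 of 25 above 0, median 0.028) had no member that passed.

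Immune genes were highest in a single WT liver, mTERT WT 3. Class II antigen presentation genes were below 0 in 7 of 8, with a median of −0.387. H2-Ab1, a class II chain, had levels of 7.67, 7.64, 7.92 and 7.97 in mTERT KO 2, mTERT KO 3, mTR KO 2 and mTR KO 3, against 8.29, 9.85, 8.50 and 7.62 in the matching WT arrays (difference −0.77, SE 0.353, limma, adjusted p 1). The pair medians of this list were −1.384 in mTERT 3, −0.305 in mTERT 2, −0.268 in mTR 2 and 0.195 in mTR 3. Without mTERT WT 3, which also carried muscle transcripts, the class II median was −0.105, the H2-Ab1 difference −0.26 and the interferon median 0.102. Interferon response genes were below 0 in 20 of 30 (median −0.051), and their mean level was 6.23 to 6.51 in KO arrays, against 7.16 in mTERT WT 3 and at most 6.20 in its 3 fellow WT arrays. The antiviral gene Mx2 differed by −0.25 (SE 0.0901). Acute phase genes were split, 12 above and 16 below 0 (median −0.015). In all these lists 0 members passed by limma, with an unadjusted p under 0.05 for H2-Eb1 of the class II list (−0.62, SE 0.273) and Mx2 of the interferon list; without mTERT WT 3 they were −0.23 and −0.15.

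Lists of other cell types were read for the make-up of the pieces. Pancreas genes were below 0 in 23 of 23 with a median of −1.663. By limma 18 had an unadjusted p under 0.05, against 1.16% of all probes on the lower side, although 0 passed. Cpb1, a pancreatic carboxypeptidase, had levels of 3.70, 3.69, 3.81 and 3.50 in mTERT KO 2, mTERT KO 3, mTR KO 2 and mTR KO 3, against 10.63, 3.71, 8.56 and 3.52 in the matching WT arrays. The WT arrays numbered 3 were as low as KO for Cpb1, and without mTERT WT 2 and mTR WT 2 the median of the list was 0.102. Of the 23 pancreas genes, 2 to 4 were above background in the KO arrays and 2 to 18 in the WT arrays. Muscle genes were below 0 in 24 of 24 (median −0.488), with 5 to 9 above background in KO and 5 to 23 in WT. Tpm2, a muscle tropomyosin, read 4.09 to 4.42 in the KO arrays, against 4.22, 4.52 and 4.31 in mTERT WT 2, mTR WT 2 and mTR WT 3 and 6.50 in mTERT WT 3, and the muscle median was 0.02 without mTERT WT 3. Stellate cell and fibroblast genes were above 0 in 11 of 18 (median 0.029); Acta2, the smooth muscle actin, had levels of 5.26, 4.98, 4.91 and 5.40 in KO, against 5.15, 5.80, 5.58 and 6.01 in WT (−0.50, SE 0.139, limma, unadjusted p 0.00522). Sinusoidal endothelial genes were above 0 in 16 of 21 (median 0.064), with the lymphatic receptor Lyve1 at 0.17 (SE 0.108), or 0.06 without mTERT WT 2.

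Of 61 ribosomal protein genes 47 were above 0 (median 0.044), as were respiratory chain genes in 26 of 36 (median 0.032), and olfactory receptors, used as the unexpressed control, in 524 of 1015 (median 0.003). Small nucleolar RNAs, guides for the modification of ribosomal RNA, were above 0 in 27 of 51 (median 0.006), with wide single values. Snora23 had levels of 7.18, 8.23, 6.98 and 7.06 in mTERT KO 2, mTERT KO 3, mTR KO 2 and mTR KO 3, against 8.08, 8.19, 8.73 and 7.99 in the matching WT arrays (difference −0.89, SE 0.256, limma, unadjusted p 0.00621), and the mTERT 3 pair was level. Without mTR WT 2 the Snora23 difference was −0.56. Snord35a went the other way, at 0.42 (SE 0.128). By limma 0 members of these lists passed.

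A pooled effect averages 2 lines, so the KO effect in the mTERT line minus that in the mTR line was tested for every probe. By limma 0 probes passed (0.0%), the smallest adjusted p being 0.999, and 1032 had an unadjusted p under 0.05 (3.58%). Glrx, a glutaredoxin that reverses glutathione modification of proteins, had levels of 8.13 and 8.33 in mTERT KO 2 and 3, against 7.27 and 7.22 in mTERT WT 2 and 3. In the other line it had 7.44 and 7.51 in mTR KO 2 and 3, against 7.60 and 7.64 in mTR WT 2 and 3. The KO effect on Glrx was thus 0.99 with loss of mTERT and −0.14 with loss of mTR, a difference of 1.13 (SE 0.154, unadjusted p 4.77e-05), and the pooled 0.42 (SE 0.193) lies between them. Arsb, a lysosomal sulfatase, showed the mirror image, at 6.03 and 6.01 in mTERT KO, against 6.85 and 6.67 in mTERT WT, and at 6.89 and 6.99 in mTR KO, against 6.77 and 6.94 in mTR WT. Its effects were −0.74 and 0.08 (difference −0.82, SE 0.166, unadjusted p 0.000839). Glrx, Arsb and Tert lie on the same chromosome in the RefSeq table, with 24 protein-coding genes between Glrx and Tert and 79 between Arsb and Tert.

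Cyp4a31 had effects of 1.06 with loss of mTERT and 0.10 with loss of mTR (difference 0.96, SE 0.189). The intestinal-type fatty acid binding protein gene Fabp2 (0.77, SE 0.162), the mitochondrial import gene Timm10 (0.65, SE 0.145) and the zinc-finger gene Zfp626 (0.93, SE 0.158) also had a higher KO minus WT difference in the mTERT line. Myo9a, an unconventional myosin, had effects of −0.07 and 1.09 (difference −1.16, SE 0.207), but the 12 other probes of the gene gave pooled differences of −0.18 to 0.17, against 0.51 at this probe, with 5 of 12 of the same sign. The guanine deaminase gene Gda (−0.70, SE 0.156) and the chaperone gene Hyou1 (−0.76, SE 0.177) had a lower one in the mTERT line. In the pairs numbered 1 the order of the lines turned for Timm10 (−0.33 in mTERT, 0.28 in mTR) and Zfp626 (−0.4, 0.17). It also turned for Myo9a (0.29, −0.34) and Gda (−0.29, −0.39). The order was kept for Glrx (0.43, 0.17), Arsb (−0.5, −0.3), Cyp4a31 (1.21, −0.25), Fabp2 (−0.13, −0.27) and Hyou1 (−0.58, 0.16). Tert read 3.95 in mTERT KO 1 and 4.13 in mTERT WT 1, both below background, so that pair gives no order for it. Of the genes carried over from earlier results of these data, Tfrc, the transferrin receptor through which cells take up iron, had levels of 7.82 and 7.77 in mTR KO 2 and 3, against 7.18 and 7.09 in mTR WT 2 and 3, and 7.26 and 7.00 in mTERT KO 2 and 3, against 7.07 and 7.30 in mTERT WT 2 and 3 (difference between lines −0.71, unadjusted p 0.00426). The Ras inhibitors Spred1 and Spred2 differed between lines by 0.67 and 0.63, and Smad9, of bone morphogenetic protein signalling, by 0.79; their pooled differences were −0.12, −0.18 and 0.16.

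The count of line differences rested on single arrays. Without mTERT WT 2, 73 probes were called by limma, 72 of them lower, and 17 of the 73 belonged to the muscle list; mTERT WT 3, the array with muscle transcripts, was then the sole mTERT WT. Without mTERT WT 3, 2 probes were called, both with no gene name. In the fit of the pooled effect itself, the line term separated the mTR and mTERT animals at 6 probes and the title number at 0, with 2121 and 1903 at an unadjusted p under 0.05.

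**Figure D5:**
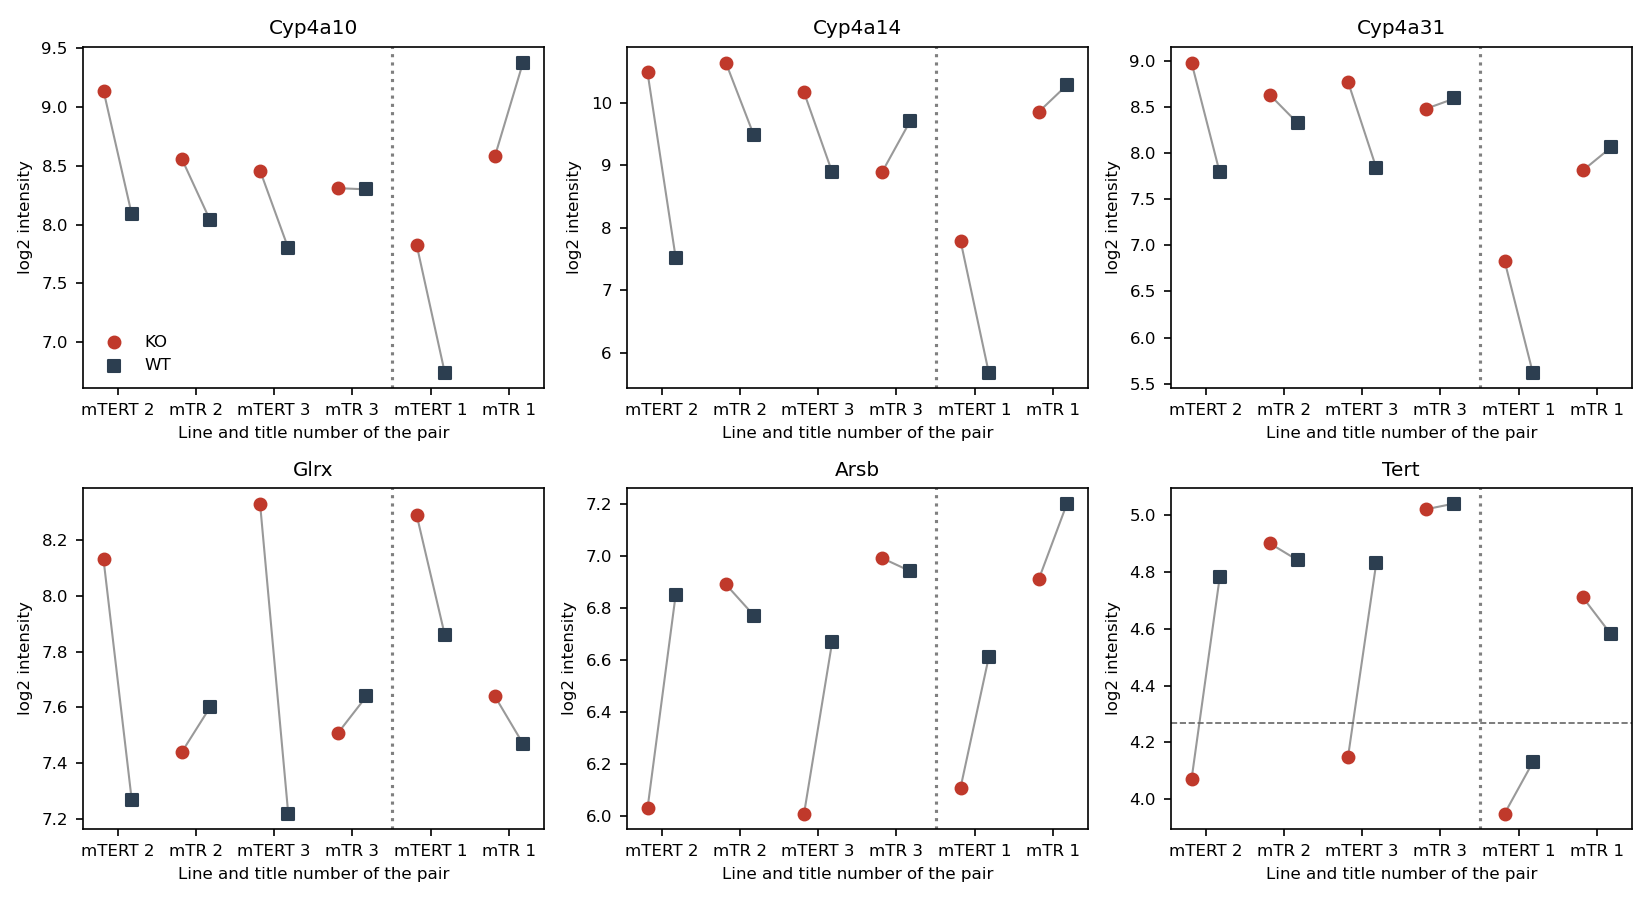
Levels of 6 genes in each pair, KO as red circles and WT as dark squares, with pairs numbered 1, not in the fit, right of the dotted line; the axes differ between panels and do not start at 0. Cyp4a10, Cyp4a14 and Cyp4a31 are higher in KO in the mTERT pairs, and Glrx is higher and Arsb lower in mTERT KO than in mTERT WT. Tert is lower in mTERT KO in the pairs numbered 2 and 3, while both Tert levels of the mTERT pair numbered 1 are below background. The mTR pairs numbered 2 and 3 of Glrx, Arsb and Tert lie close together. The dashed line marks the background level of 4.27.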

How the data were processed

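Liver RNA was extracted with Trizol, cleaned on RNeasy columns, amplified in 1 round from T7 random primers and labelled with biotin, per the labels' protocols. The authors deposited 1 table of array values, read here as log2 intensities from their range of 2.62 to 13.83; the base of the logarithm, the normalization and any filter are not given in the sources used here. GCOS 1.4, PLIER and the Affymetrix Expression Console are named, with no role given, per the submitters' processing notes. Of 28853 probes, 21789 had 1 gene symbol in the platform annotation, 1621 several and 5443 none; 21698 had an Entrez identifier found in a RefSeq table (GRCm38.p6), used for names and gene order. Lists used 1 probe per gene, the brightest over the 8 arrays, which left 19938 genes. List counts and medians include members below background in both groups.

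All probes of the 8 arrays were fitted with limma 3.58.1 (R 4.3.3), lmFit and eBayes with the default prior, with genotype, line and title number as terms (4 residual degrees of freedom). Line by genotype was added for the difference between lines. All p-values are two-sided and adjusted by Benjamini-Hochberg over all probes, and the fit was tested on simulated data. SE is the moderated standard error; the number of arrays limits the precision.

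The arrays, members and gene lists were chosen with earlier results of these data known, so lists are described by counts and medians, with no test. Genes named are up to 15 per direction that passed, filled up to 12 by the smallest p among probes with the same sign in 4 of 4 pairs; Tert and Terc; up to 3 members with the smallest p of a described list; up to 5 per direction in the difference between lines; and Glrx, Smad9, Arsb, Tfrc, Asns, Cyp4a10, Cyp4a14, Cyp4a31, Spred1 and Spred2 from earlier results. Predicted, olfactory and vomeronasal genes and genes below background in both groups were not named, apart from Terc. After removal of group means, KO and WT arrays of the same number correlated at 0.134 (mTERT) and 0.164 (mTR); with 2 arrays per group the 2 numbers mirror each other. Pairing comes from the series text on littermates. Alternatives were quantile normalization, median centring, filters at the 30th and 50th percentile, a trended and robust prior, the litter as a block, no block for title number, array weights, 1 probe per gene, an adjusted p under 0.10, pancreas or muscle means as covariates, all 12 arrays, and leaving out arrays. The contrast with number 1 and the bile duct list without Dmbt1 were added after seeing the data.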

Additional observations from a re-analysis of the deposited data

Results flagged for a closer look

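The effect of genotype on Dmbt1 differed between the pairs numbered 2 and 3 and those numbered 1 by −6.73 on the log2 scale in a test of that difference (limma, SE 0.579, adjusted p 0.00273). That value is the fitted one and not a measured size, since Dmbt1 was below background in the 4 KO arrays numbered 2 and 3. In each of the 8 sets of values that follow, 1 array lay far from the other 3 of its genotype; 182 groups of 4 arrays were examined, and chance marks about 1 in 20. In mTERT KO 3 the Eif2ak3 level was 6.68, against 7.00 to 7.05 in the other KO arrays. In the same array Snora23 was at 8.23, with 6.98 to 7.18 in the other KO arrays. Terc read 3.87 in mTR KO 3 and 4.17 to 4.23 in the other KO arrays, all below background. In mTR WT 2, which carried pancreas transcripts, Terf2 was at 5.24 (5.56 to 5.62 in the other WT arrays) and the hepatocyte marker mean at 12.37 (12.50 to 12.51 in the others). In mTERT WT 3 the muscle mean was 6.30 (4.01 to 4.09 in the other WT arrays), the muscle gene Tpm2 was at 6.50 (4.22 to 4.52), and the interferon response mean was 7.16 (6.14 to 6.20).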

How the results depend on the processing

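The pooled comparison called 1 probe and kept Dmbt1 as a call in 20 of 20 alternatives of the 8 arrays; leaving out any 1 array gave 1 call. It called 2, the unnamed probe being added, at an adjusted p under 0.10, after quantile normalization, with a trended and robust prior, without the title number as a block and with array weights. With all 12 arrays it called 0 (791 at an unadjusted p under 0.05). With the litter as a replicate block the pooled comparison called 1 probe, Dmbt1, and the line difference 0, so the block changed no call. The line difference called 2 with the muscle mean as a covariate and 0 to 73 when 1 array was left out: 73 without mTERT WT 2, when Glrx also passed at 1.21, and 2 without mTERT WT 3. Turned in sign, none of them called by limma, were, with all 12 arrays, Terc (0.06) and Nr1d1 (0.29); without mTERT WT 2 and mTR WT 2, Pot1b (0.01), Parp1 (−0.00), Fasn (−0.05) and Lyve1 (−0.02); with the pancreas mean as a covariate, Igfbp3 (−0.06), Cyp4a12a (0.01) and Lyve1 (−0.03); and with the muscle mean, Sox9 (0.02). Leaving out 1 array turned Terc (−0.12 to 0.06), Smad9 (−0.02 to 0.32), Creld2 (−0.41 to 0.09) and Sox9 (−0.23 to 0.03). The cause was not tested. Gene list medians moved beyond the spread between pairs in 4 alternatives and 6 fits without 1 array. Depth is not defined for arrays; levels below 4.27 have no order.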
